A study of Mus musculus with 8 samples.

Results

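The genes described here encode the nuclear subunits of the 5 mitochondrial oxidative phosphorylation complexes. They were followed in resting peritoneal macrophages (pMacs) of wild-type (WT) and CD1d-deficient (CD1d-KO) mice. The members were chosen by gene name and by level: protein-coding genes whose symbol starts with Ndufa, Ndufb, Ndufc, Ndufs, Ndufv, Uqcr, Cox4 to Cox8 or Atp5, together with Sdha to Sdhd and Cyc1, without the assembly factors named Ndufaf, and with a mean of at least 20 expected counts over the 8 libraries. Of 86 genes with such a name, 78 reached that level, out of 48795 genes measured. Complex I gave 37 of them, complex II 4, complex III 9, complex IV 11 and complex V 17. The level minimum chose the members, so their being present is not a result. The rule used no comparison of genotypes, but the members were chosen with earlier results of these data known.

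Oxidative phosphorylation moves electrons from NADH and succinate through complexes I and II to coenzyme Q, then through complex III and cytochrome c to complex IV, where oxygen is reduced. Complexes I, III and IV pump protons out of the mitochondrial matrix, and complex V, the ATP synthase, uses the return flow to make ATP. Resting tissue macrophages rely in good part on this pathway, and inflammatory stimulation is known to shift macrophages towards glycolysis. A small set of core subunits is encoded in mitochondrial DNA, and all other subunits come from nuclear genes such as those listed here.

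RNA was sequenced from 8 mice, 4 of each genotype, numbered 1, 2, 3 and 5 within each, from pMacs obtained by peritoneal lavage without stimulation. CD1d is the molecule that presents lipids to natural killer T (NKT) cells. The knockout removes it from all cells and the mice also lack NKT cells, so a difference need not arise inside the macrophages. The study used adult mice matched for age and sex, and the controls were littermates. The study kept a line with deletion of both mouse CD1d genes and a line with floxed CD1d deleted through a PGK promoter-driven Cre, and which of them gave these libraries is not given in the sources used here. The libraries were made from polyadenylated RNA and held 13698864 to 19059432 expected counts each.

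The targeted gene was examined first. Cd1d1 had 68.2, 175, 96.1 and 141 normalised counts in WT replicates 1, 2, 3 and 5. In CD1d-KO it had 60.6, 1.14, 0 and 1.10 normalised counts in the same order, so the library labelled CD1d-KO replicate 1 lay close to its WT counterpart and far from the other CD1d-KO libraries. The Cd1d1 difference did not pass when all libraries were used (log2 fold change -3.42, edgeR quasi-likelihood adjusted p = 0.233) and did pass without replicate 1 (log2 fold change -7.27, edgeR adjusted p = 0.000685). The median log2 fold change of the subunits and the counts of members passing are therefore also given without replicate 1. The intervals and the fitted values of single genes below include that replicate. All 8 macrophage-defining genes examined (Adgre1, Itgam, Csf1r, Cd14, Mertk, Lyz2, Cd68 and Fcgr1) were expressed, with a summed level of 22182 to 31210 TPM per library (TPM is the share of a library's transcripts, scaled for transcript length). Lyz2 made up most of that sum, with a mean of 21320 TPM. Fcgr1 varied widely, from 3.65 to 155 TPM. In CD1d-KO 5 of the 8 genes were higher and 3 lower, with 0 at an adjusted p under 0.05 in edgeR. Of 8 genes listed for large peritoneal macrophages, 6 were higher in CD1d-KO and 2 lower. At an unadjusted p under 0.05 in edgeR, 4 of these were higher (50%, beside 7.35% of all genes tested) and 0 lower. None of them had an adjusted p under 0.05. B cell genes summed to 166 to 507 TPM in WT and 114 to 853 TPM in CD1d-KO. All 8 had a fitted log2 fold change above 0, with 0 at an unadjusted p under 0.05 in edgeR. The part of these cell types in the values below was not tested. In such bulk libraries, fewer cells of a type and less RNA per cell cannot be told apart.

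The level of the subunit transcripts was compared between genes on the TPM scale. Over all 78 genes the mean level had a median of 66.2 TPM and the levels summed to 6963 TPM. Complex IV had the highest median level (161 TPM), followed by complex V (97.0 TPM), complex III (70.5 TPM), complex II (64.6 TPM) and complex I (43.2 TPM). The subunit genes together took 0.603 to 0.782% of all TPM in a library. The range was 0.638 to 0.776% in WT and 0.603 to 0.782% in CD1d-KO, so the groups overlapped.

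**Figure D1:**
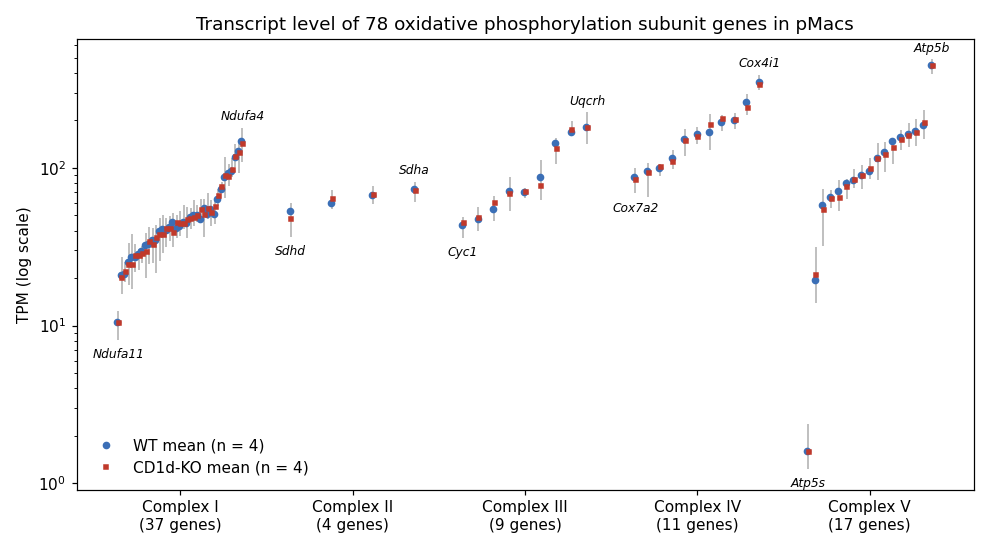
Each pair of points is 1 gene, with the mean TPM of 4 WT libraries (circle) and 4 CD1d-KO libraries (square) on a log axis, ordered by level within each complex. The grey line spans the lowest and the highest of the 8 libraries. WT and CD1d-KO means lie beside each other, from Atp5s at 1.59 TPM to Atp5b at 446.6 TPM.

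Among complex I genes, Ndufa4 was the most abundant, at 148 ± 20.3 TPM in WT and 143 ± 28.5 TPM in CD1d-KO (SD, n = 4). It is listed here by its symbol, but its product has since been assigned to complex IV. Ndufa3 and Ndufa1, accessory subunits of the membrane arm, followed with 126 and 118 TPM over the 8 libraries. Ndufa11, another membrane arm subunit, was lowest with 10.5 TPM. That rank holds for TPM, which divides by a transcript length of 2661 bases for Ndufa11. Its mean of 266 expected counts was above that of Ndufb4 (119.6). The 16 genes of the matrix arm, which holds the flavin and the iron-sulfur clusters, had a median of 41.8 TPM, and the 21 genes of the membrane arm 48.0 TPM. In complex II the catalytic flavoprotein gene Sdha led with 72.5 TPM, and the membrane anchor genes Sdhc and Sdhd had 67.3 and 50.5 TPM. The iron-sulfur subunit gene Sdhb lay between them with 61.8 TPM, so the 4 subunits, which assemble in equal numbers, spanned 50.5 to 72.5 TPM. In complex III the highest were the hinge subunit gene Uqcrh (180 TPM), Uqcrq (171 TPM) and Uqcrb (137 TPM), and the lowest was Cyc1 (44.1 TPM), which encodes cytochrome c1. Complex IV was led by Cox4i1 (344 TPM), Cox5b (251 TPM) and Cox6a1 (201 TPM), with Cox7a2 lowest (85.97 TPM). Cox6a1 and Cox6b1 (200.1 TPM) did not differ beyond their spread over libraries. In complex V the catalytic beta subunit gene Atp5b was the highest of all members, at 452 ± 27.9 TPM in WT and 441 ± 40.03 TPM in CD1d-KO (SD, n = 4). Atp5h, for a subunit of the peripheral stalk, had 190.1 TPM and Atp5e, for the epsilon subunit of the central stalk, 169.5 TPM. Atp5s, which encodes coupling factor B, was the lowest member with 1.59 TPM.

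Several complex IV subunits exist as isoforms of different tissues, and the level minimum separated them. In each set the broadly expressed isoform was a member, and the isoform known from heart and skeletal muscle, lung or testis was not. Cox7a2, the broadly expressed form, had 586 ± 78.5 normalised counts in WT and 558 ± 34.4 in CD1d-KO, against 3.94 ± 1.23 and 5.31 ± 1.52 for the muscle form Cox7a1 (SD, n = 4). Cox8a had 701 ± 112 normalised counts in WT and 681 ± 32.3 in CD1d-KO. The muscle form Cox8b had 0 counts in 7 libraries and 5 expected counts in CD1d-KO replicate 1, and the testis form Cox8c had 0 counts in all 8. Cox4i2, known from lung, had 1 expected count in WT replicate 5 and 0 in the other 7 libraries, against a mean of 344 TPM for Cox4i1. Cox6a2, the muscle counterpart of Cox6a1, was nearest to the level minimum among the genes left out, with a mean of 12.5 expected counts, before Cox7a1 (4.75) and the testis form Cox6b2 (2.75). Just inside lay Atp5s (22.5), Ndufb4 (119.6) and Atp5g2 (126.3 expected counts). Cox7b2 was listed at 0 in every library, and Ndufa4l2, the hypoxia-inducible relative of Ndufa4, had 0 or 2 expected counts. Of the 3 genes that encode the same mature c subunit of the ATP synthase ring, Atp5g3 had 141 TPM, Atp5g1 68.0 TPM and Atp5g2 20.2 TPM.

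The start sites of the Cox7a and Cox8 pairs are shown as examples of an expressed and a scarcely detected isoform. Promoter windows run from 250 bases before to 50 bases after the transcription start, on the strand of the gene, from RefSeq on GRCm38.p6, and CpG dinucleotides are in capitals. Cox7a2 lies at chr9:79759804-79760103 (minus strand), Cox7a1 at chr7:30183921-30184220 (plus), Cox8a at chr19:7217567-7217866 (minus) and Cox8b at chr7:140900397-140900696 (minus).
Cox7a2: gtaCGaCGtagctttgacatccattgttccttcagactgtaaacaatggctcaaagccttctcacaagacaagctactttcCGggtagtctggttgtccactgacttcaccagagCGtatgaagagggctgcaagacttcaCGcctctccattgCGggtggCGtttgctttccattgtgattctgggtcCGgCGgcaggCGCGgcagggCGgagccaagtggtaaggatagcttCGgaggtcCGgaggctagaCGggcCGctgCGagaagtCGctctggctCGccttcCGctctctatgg
Cox7a1: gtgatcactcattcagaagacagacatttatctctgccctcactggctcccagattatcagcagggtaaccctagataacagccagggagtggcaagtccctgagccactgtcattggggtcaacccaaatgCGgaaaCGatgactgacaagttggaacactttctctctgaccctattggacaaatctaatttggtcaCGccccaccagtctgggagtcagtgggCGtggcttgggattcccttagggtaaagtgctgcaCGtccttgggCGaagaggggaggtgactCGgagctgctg
Cox8a: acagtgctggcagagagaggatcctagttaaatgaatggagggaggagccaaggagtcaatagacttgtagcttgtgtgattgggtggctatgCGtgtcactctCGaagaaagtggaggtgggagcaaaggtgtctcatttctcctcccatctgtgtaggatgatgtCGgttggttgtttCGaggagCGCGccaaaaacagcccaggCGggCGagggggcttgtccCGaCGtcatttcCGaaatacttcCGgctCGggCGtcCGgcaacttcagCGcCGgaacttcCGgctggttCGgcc
Cox8b: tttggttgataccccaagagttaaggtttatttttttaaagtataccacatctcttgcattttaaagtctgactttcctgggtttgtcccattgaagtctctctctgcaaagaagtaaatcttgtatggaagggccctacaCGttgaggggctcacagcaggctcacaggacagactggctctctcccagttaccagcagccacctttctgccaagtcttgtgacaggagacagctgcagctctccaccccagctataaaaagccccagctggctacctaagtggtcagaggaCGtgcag
The windows of the expressed Cox7a2 and Cox8a held 20 and 19 CpG dinucleotides, those of Cox7a1 and Cox8b 7 and 2. The Cox6b pair had the same order, with 17 in Cox6b1 and 10 in Cox6b2, and the Cox7b pair the opposite one, with 5 in the member Cox7b and 10 in Cox7b2, which had no counts. Over the 63 members with a RefSeq window the median was 19 (5 to 43), and in the 4 isoform genes under the level minimum that had a window it was 8.5 (2 to 10), so the ranges overlapped, and the difference was not tested. All 9267 tested genes with a window had a median of 21, close to that of the members, and all 27025 windows a median of 7.

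Sequence motifs of 4 factors known to act on respiratory genes were counted in the same windows on both strands: CGCATGCG for NRF1, CCGGAAG for ETS factors such as GABP, AAGATGGCG for YY1 and AAGGTCA for oestrogen-related receptors. The NRF1 motif was found in 8 members (12.7%), against 4.10% of tested genes and 1.91% of all promoters. YY1 was found in 6 (9.52%, against 3.46% and 1.495%) and the oestrogen-related receptor motif in 8 (12.7%, against 3.01% and 4.66%). The ETS motif was found in 15 members (23.8%), against 19.5% and 9.12%. At least 1 of the 4 was present in 29 members (46.0%), against 27.6% of tested genes and 16.1% of all promoters. These are matches of letters, and no binding was measured. The windows of Sdhd, the member of smallest p in the comparison below, at chr9:50603800-50604099 (minus), and of Cox6a1, at chr5:115348909-115349208 (minus), are given with the matches in capitals.
Sdhd: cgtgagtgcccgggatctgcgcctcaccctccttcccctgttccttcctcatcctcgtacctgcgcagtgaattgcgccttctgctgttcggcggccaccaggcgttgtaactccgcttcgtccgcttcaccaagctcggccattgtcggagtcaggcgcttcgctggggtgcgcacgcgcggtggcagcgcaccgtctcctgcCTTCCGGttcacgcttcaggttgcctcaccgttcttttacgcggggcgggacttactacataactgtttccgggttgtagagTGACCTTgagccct
Cox6a1: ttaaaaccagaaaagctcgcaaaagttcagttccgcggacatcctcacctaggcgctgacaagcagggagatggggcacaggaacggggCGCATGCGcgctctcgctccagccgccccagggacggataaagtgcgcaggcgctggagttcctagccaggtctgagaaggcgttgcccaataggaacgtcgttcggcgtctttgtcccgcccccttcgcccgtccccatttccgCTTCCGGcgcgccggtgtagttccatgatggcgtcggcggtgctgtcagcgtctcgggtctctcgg
Sdhd holds an ETS and an oestrogen-related receptor match, both on the reverse strand, and Cox6a1 an NRF1 match and a reverse-strand ETS match.

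The main comparison asked whether loss of CD1d changed the transcripts of these subunits in resting pMacs. None of the 78 genes passed the test of the study's kind (adjusted p under 0.01 and a fold above 1.5 in edgeR's quasi-likelihood test with genotype and replicate number), a rule that 0.0383% of the 13040 genes tested passed. No member passed at an adjusted p under 0.05 either, against 0.406% of genes tested. The smallest adjusted p of a member was 0.380. At an unadjusted p under 0.05, 1 member was lower in CD1d-KO (1.28% of members, against 5.01% of all genes tested) and 0 were higher (against 7.35%). All 78 members entered the test. Of the 13040 genes tested, 5 passed the rule that includes the fold, so the absence of members under that rule alone says little. This fit included the CD1d-KO replicate 1 library, which kept Cd1d1. The study used DESeq2 and reported many more genes at the same thresholds. The cause of that gap was not tested.

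Differences were small in size in the fit of all libraries, which includes CD1d-KO replicate 1. The intervals were not followed without that replicate. The fitted log2 fold changes of the members ran from -0.21 to 0.16 with a median of -0.04, beside a median of 0.0047 over all genes tested. In 76 of 78 members (97.4%) the 95% interval lay within a fold of 1.5 in either direction, which held for 62.9% of all genes tested. The exceptions were Atp5s, with about 22 normalised counts per library and an interval of -0.68 to 0.59, and Atp5g2, with an interval of -0.37 to 0.69 (log2 fold change, 95%). The SE of a member's log2 fold change had a median of 0.09, against 0.122 over all genes tested. The share of intervals within a fold of 1.5 depends on this precision as well as on the size of the differences.

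**Figure D2:**
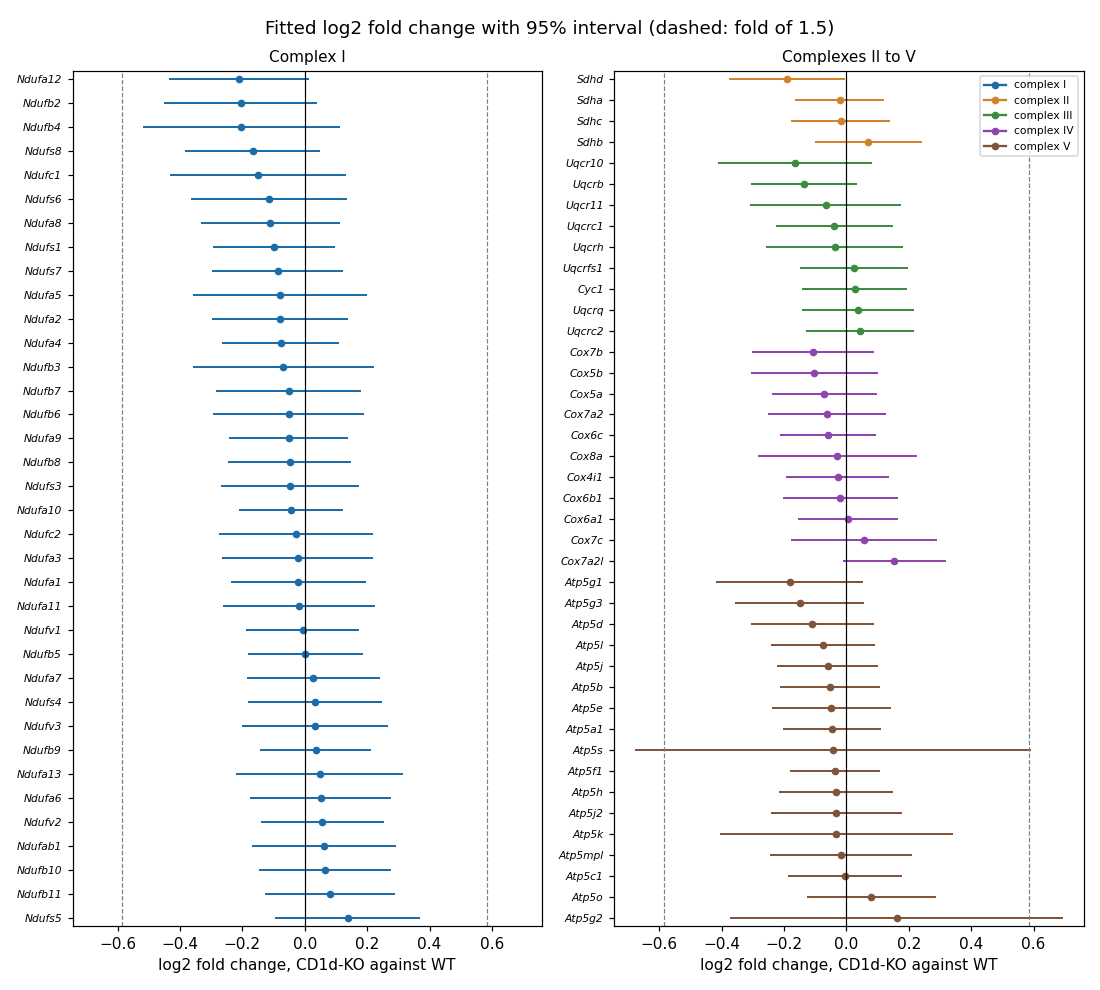
Points are fitted log2 fold changes of CD1d-KO against WT for 77 of the 78 members, bars are 95% intervals (n = 4 mice per genotype), and dashed lines mark a fold of 1.5 in either direction. Of those shown, only the intervals of Atp5s and Atp5g2 cross a dashed line, and that of Sdhd alone leaves out 0, ending at -0.01.

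Of the members, 55 (70.5%) had a fitted log2 fold change below 0, against 49% of all genes tested. The medians were -0.04 in complex I, -0.02 in complex II, -0.04 in complex III, -0.03 in complex IV and -0.04 in complex V. Within complex V 15 of 17 genes were below 0, and within complex I 24 of 37. The median log2 difference of the members was 0.04 in pair 1, whose CD1d-KO library kept Cd1d1. It was -0.04 in pair 2, -0.0065 in pair 3 and -0.13 in pair 5. The pair medians had an SD of 0.0729, and a relation of their sign to Cd1d1 was not tested. Without replicate 1 the fitted median was -0.06 and 0 members were lower at an unadjusted p under 0.05. Without WT replicate 2 it was 0.0015, in a fit without the replicate number as covariate. Without both replicate 5 libraries, with that covariate kept, it was -0.0039.

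The level of the subunit genes was followed from mouse to mouse. The mean log2 deviation of the 78 genes from their own means was -0.02, 0.13, -0.06 and 0.03 in WT replicates 1, 2, 3 and 5, and 0.02, 0.07, -0.07 and -0.10 in the CD1d-KO replicates of the same numbers. WT replicate 2 had 67 of 78 genes above their own mean and CD1d-KO replicate 2 had 60, whereas CD1d-KO replicate 5 had 13. The other 5 libraries had 26 to 46. The complexes could part within a library: CD1d-KO replicate 3 had a mean deviation of -0.11 in complex I and 0.04 in complex IV. The group means were 0.02 ± 0.08 in WT and -0.02 ± 0.08 in CD1d-KO (SD, n = 4), a difference of -0.04 between genotypes. These SDs include what libraries of the same number share. The SD of the pair medians given above, 0.0729, leaves that shared part out. It describes differences within pairs, and medians rather than means, so it cannot be compared directly with the SDs of library levels. Libraries that carried the number 2 were high in both genotypes, and those with the number 3 were low for complex I in both.

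**Figure D3:**
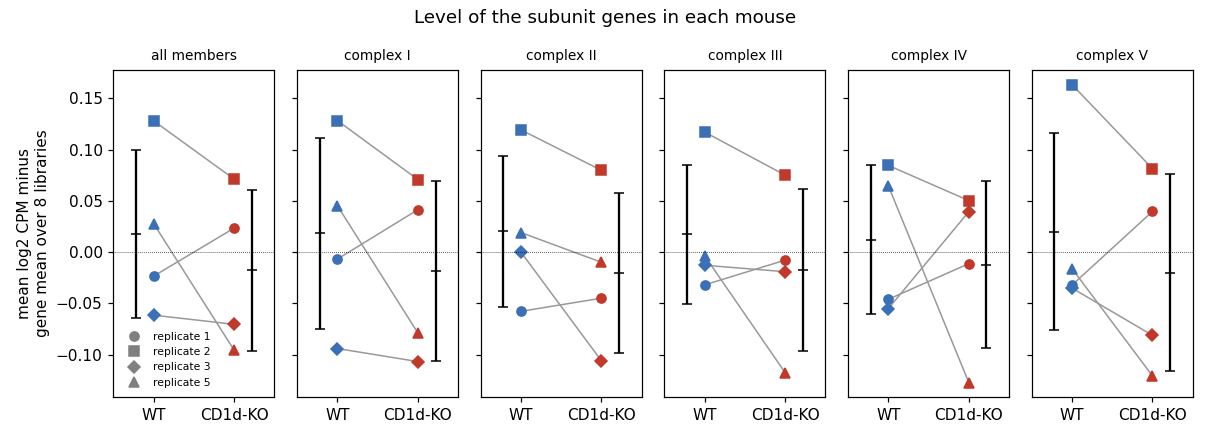
Each point is the mean of log2 CPM (counts scaled to library size) minus the mean of each gene over 8 libraries, taken over all members or over 1 complex, with lines joining libraries of the same replicate number. Black marks are group means with SD (n = 4); WT replicate 2 is the highest point in every panel, and the genotypes overlap in all of them.

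Sdhd, a membrane anchor of succinate dehydrogenase, had the smallest p. It had 624, 700, 644 and 598 normalised counts in WT and 560, 623, 490 and 577 in CD1d-KO (replicates 1, 2, 3 and 5). Every CD1d-KO library was below its WT partner, but the ranges of the groups overlapped. The log2 fold change was -0.19 ± 0.08 (SE), with an edgeR adjusted p of 0.380, and it was the member counted above at an unadjusted p under 0.05. The other subunits of complex II had log2 fold changes of -0.02 (Sdha), -0.02 (Sdhc) and 0.07 (Sdhb).

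Ndufa12, an accessory subunit of the matrix arm of complex I, followed with 205, 277, 238 and 226 normalised counts in WT and 177, 266, 183 and 195 in CD1d-KO. It too was lower in 4 of 4 pairs (log2 fold change -0.21, edgeR adjusted p = 0.420). Ndufb2, of the membrane arm, had 181, 168, 142 and 151 normalised counts in WT and 157, 154, 116 and 130 in CD1d-KO (log2 fold change -0.21, edgeR adjusted p = 0.476). Uqcrb of complex III had 608, 711, 655 and 617 in WT and 569, 657, 535 and 598 in CD1d-KO (log2 fold change -0.14, edgeR adjusted p = 0.491). The iron-sulfur subunit gene Ndufs8 and the c subunit gene Atp5g1 had log2 fold changes of -0.17 and -0.18 and were lower in 3 of 4 pairs each. In all of these genes the ranges of WT and CD1d-KO libraries overlapped.

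The 6 members lower in every pair of mice were Ndufa12, Ndufb2, Ndufs7, Sdha, Sdhd and Uqcrb. That is 7.69% of members, beside 10.1% of all genes tested, and 0 members were higher in every pair, beside 10.6%. Sdha was the single member whose WT and CD1d-KO libraries did not overlap (1.28% of members, against 1.96% of all genes tested). It had 1762, 1767, 1802 and 1765 normalised counts in WT and 1735, 1748, 1760 and 1750 in CD1d-KO, a difference of -0.02 on the log2 scale. Sdha also had the lowest within-group coefficient of variation of all 13040 genes tested, 0.834%, which is below the 2.38% that counting alone would give at its level, so this closeness of its libraries was finer than the depth can resolve.

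The member with the smallest p in the other direction was Cox7a2l, whose product has been linked to supercomplexes of complexes III and IV. Whether it has that role in these mice was not tested. It had 1620, 1391, 2057 and 1619 normalised counts in WT and 1949, 1562, 2332 and 1616 in CD1d-KO. It was higher in 3 of 4 pairs and 0.00 apart in pair 5, for a log2 fold change of 0.15 ± 0.07 (SE, edgeR adjusted p = 0.425). Next were Ndufs5, an intermembrane space subunit of complex I (log2 fold change 0.14), the oligomycin sensitivity subunit gene Atp5o (0.08), Ndufb11 (0.08) and Sdhb (0.07). Their edgeR adjusted p values ran from 0.638 to 0.774.

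No gene of the isoform sets passed the test. For Cox4i1 the log2 fold change was -0.03 (95% interval -0.19 to 0.13), for Cox6a1 0.00 (-0.15 to 0.16), for Cox6b1 -0.02 (-0.20 to 0.16), for Cox7a2 -0.06 (-0.25 to 0.12) and for Cox8a -0.03 (-0.28 to 0.22). Cox6a2, the only isoform under the level minimum that could be tested, had 10.5, 10.8, 18.0 and 4.22 normalised counts in WT and 11.4, 14.9, 16.5 and 16.5 in CD1d-KO (log2 fold change 0.50, 95% interval -0.47 to 1.46). Among the c subunit genes, Atp5g2 had 91.4, 108, 214 and 88.6 normalised counts in WT and 143, 129, 128 and 125 in CD1d-KO. WT replicate 3 was high and the other 3 WT libraries lay below all CD1d-KO libraries, so 1 library decides its value. The log2 fold change was 0.16 with all libraries (edgeR adjusted p = 0.833). It was 0.46 without WT replicate 3 and without the replicate number as covariate (edgeR adjusted p = 0.773). Without both replicate 3 libraries, with that covariate kept, it was 0.47.

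Variation among mice was low for these genes. The within-group coefficient of variation had a median of 9.69% over the members, against 17.8% over all genes tested, and counting alone would give medians of 4.72% and 6.42%. It was highest for Atp5g2, at 26.8%.

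Near-identical copies limit some of the values. Transcripts of 27 members matched another gene at 95% identity or more over at least 150 bases, and in 7 members the matching genes held over 10% of the reads of both. Ndufb4 had a mean of 119.6 expected counts, and its processed pseudogene Ndufb4c, identical over 390 bases, was assigned 170. Their sum was 301 ± 35.1 normalised counts in WT and 276 ± 32.2 in CD1d-KO. Atp5l with its pseudogene Gm10221, identical over 309 bases, summed to 900 ± 40.8 in WT and 849 ± 36.8 in CD1d-KO (SD, n = 4). The others were Uqcr10, whose match is an antisense gene, Cox7c, which has a pseudogene, and Atp5f1, Ndufb5 and Cox4i1, which overlap the neighbouring genes Wdr77, Mrpl47 and Emc8. Without these 7 genes the median log2 fold change of the members was -0.04, as with them.

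The nuclear subunits work with subunits encoded in mitochondrial DNA, with assembly factors and with enzymes that feed the chain, and these were examined as separate lists. Of the 13 mitochondrial protein genes 12 were tested and 12 of 12 had a fitted log2 fold change below 0 (median -0.17), beside 49% of all genes tested. At an unadjusted p under 0.05, 2 were lower (16.7%, beside 5.01% of all genes tested), and 0 had an adjusted p under 0.05. WT replicate 3 was the highest library for most of them, so the 12 fold changes are not independent of each other. The median was -0.08 without that library, in a fit without the replicate number as covariate. The lower ones were mt-Atp6 (log2 fold change -0.63, edgeR adjusted p = 0.169) and mt-Co3 (-0.72, edgeR adjusted p = 0.212). Both share reads with nuclear copies, and mt-Co3 was given 0 counts in both replicate 2 libraries while its copy Gm28437, identical over 783 bases, had a mean of 20230 expected counts. Summed with 11 nuclear copies, the mitochondrial genes had 175771 ± 29061 normalised counts in WT and 161188 ± 10992 in CD1d-KO (SD, n = 4), and the groups overlapped.

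**Figure D4:**
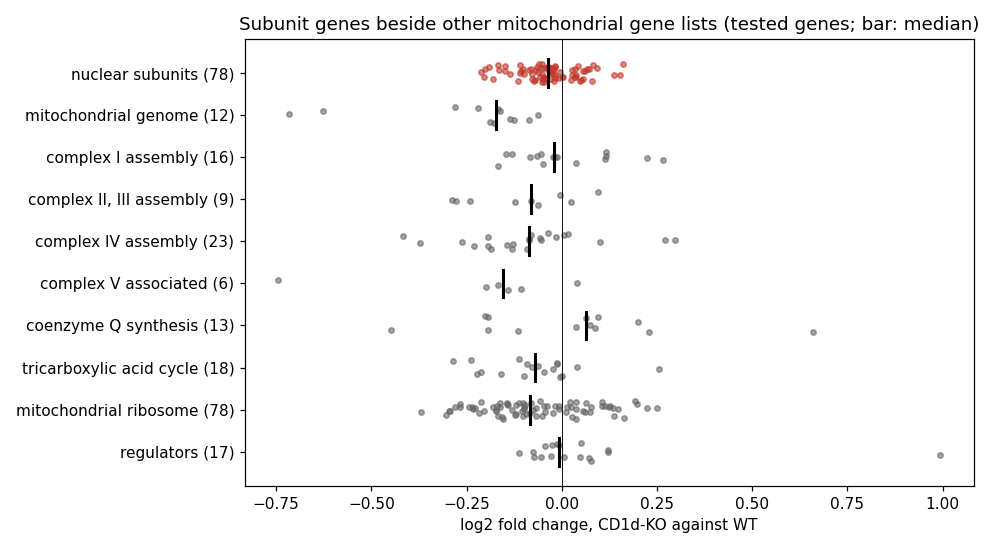
Each point is the fitted log2 fold change of 1 tested gene in CD1d-KO against WT, black bars are list medians, and the number of tested genes stands beside each list. The 78 nuclear subunits (top, red) span -0.21 to 0.16, and the medians of the lists lie between -0.17 and 0.06.

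The counts below 0 in these lists stand beside 49% of all genes tested. Complex I assembly factors had 10 of 16 tested genes below 0 and 0 at an unadjusted p under 0.05. For complexes II and III the count below 0 was 7 of 9, also with 0 at that p. Among complex IV factors 18 of 23 were below 0, with Higd2a at -0.37 and Cox15, an enzyme of heme A synthesis, at 0.27 (edgeR adjusted p = 0.255 and 0.296). Of 6 genes associated with complex V 5 were below 0. Tmem70 is counted both here and with complex I. Fmc1 had 47.2, 43.0, 25.2 and 31.6 normalised counts in WT and 30.3, 20.6, 16.4 and 19.8 in CD1d-KO (log2 fold change -0.75, edgeR adjusted p = 0.255). Usmg5, whose symbol the name rule of the members does not cover, had a log2 fold change of -0.20 (edgeR adjusted p = 0.4585). Coenzyme Q synthesis had 5 of 13 genes below 0 and 0 at an unadjusted p under 0.05. Cytochrome c (Cycs) and its heme lyase (Hccs) had log2 fold changes of -0.02 and -0.16.

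Enzymes of the tricarboxylic acid cycle had 15 of 18 genes below 0 (median -0.07), beside 49% of all genes tested. At an unadjusted p under 0.05, 3 were lower (16.7%, beside 5.01% of all genes tested) and 1 higher (5.56%, beside 7.35%). Mdh2, malate dehydrogenase, had 1669, 1721, 1431 and 1628 normalised counts in WT and 1348, 1607, 1300 and 1318 in CD1d-KO (log2 fold change -0.21, edgeR adjusted p = 0.254). Fumarase, Fh1, was at -0.29 (edgeR adjusted p = 0.233). Mitochondrial ribosomal protein genes had 52 of 78 below 0 (median -0.08), with 5 lower at an unadjusted p under 0.05 (6.41%, near the 5.01% of all genes tested) and 0 higher. A list of uncoupling proteins, ADP/ATP carriers and alternative subunits had 4 tested genes of 8. The uncoupling protein gene Ucp2 had a log2 fold change of -0.38 and the ADP/ATP carrier gene Slc25a5 of -0.25, each lower in 4 of 4 pairs (edgeR adjusted p = 0.179 and 0.221). The carrier gene Slc25a4 had a log2 fold change of -0.00065 and AA467197 of 0.21 (edgeR adjusted p = 0.739 for AA467197). The 5 antioxidant genes had none at an unadjusted p under 0.05.

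Transcriptional regulators of respiratory genes had 9 of 17 tested below 0, near the 49% of all genes tested. Among the factors whose motifs were counted above, the log2 fold change was -0.01 for Nrf1, -0.05 for Gabpa, 0.07 for Gabpb1, -0.03 for Yy1 and 0.08 for Esrra. Tfam, which packages and transcribes mitochondrial DNA, was at 0.05. The coactivator gene Ppargc1b had 7.49, 6.45, 9.61 and 17.9 normalised counts in WT and 23.5, 18.3, 14.1 and 23.1 in CD1d-KO. It was higher in 4 of 4 pairs at this low level (log2 fold change 0.99, 95% interval 0.14 to 1.85, edgeR adjusted p = 0.332). No list held a gene at an adjusted p under 0.05.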

How the data were processed

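Polyadenylated RNA from pMacs of 4 WT and 4 CD1d-KO mice was sequenced. The values deposited by the authors are expected counts, TPM and FPKM per gene. The submitters' processing notes name cutadapt, STAR 2.5.2a, RSEM 1.3.0 and GRCm38. FPKM was not used. Biotypes came from GENCODE M21 by gene ID (99.3% of genes).

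Expected counts were rounded, filtered with filterByExpr, scaled by TMM and fitted with edgeR 4.0.16 (quasi-likelihood, R 4.3.3) on genotype and replicate number, the study's covariates, with Benjamini-Hochberg adjustment over 13040 genes. SE and 95% intervals derive from the F statistic. Normalised counts are counts divided by effective library size and multiplied by its mean over libraries. TPM was used for levels. Copies were sought with blastn 2.17.0. The fits were tested on simulated data. Alternatives used DESeq2 1.42.0, limma 3.58.1 on log2(TPM + 1), other scalings and filters, and a length and GC correction. Each replicate number and each single library was also left out. Fits without a single library had no replicate number as covariate, so both the libraries and the model changed.

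RSEM shares reads between similar transcripts, so 35 members have fractional counts. Depth was 13698864 to 19059432 expected counts per library.

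Members and gene lists were chosen with earlier results of these data known. Named were the 3 highest and the lowest member of each complex by TPM, the 6 of smallest p in each direction, isoform sets, the genes beside the level minimum and, of other lists, those of smallest p; Ndufs7, Nrf1, Gabpa, Gabpb1, Yy1, Esrra, Tfam, Cycs, Hccs, Slc25a4 and AA467197 were added after their values were seen. Of the members that this rule names, 1 is not reported here.

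Libraries of the same number deviated together: over genes tested, the correlation of deviations from the genotype means was 0.487, 0.387, 0.505 and 0.207 for replicates 1, 2, 3 and 5. Between differently numbered WT and CD1d-KO libraries it reached at most -0.0148, 0.0254, 0.0586 and 0.22 for the same WT libraries, so replicate 5 correlated no better with its own number. All 4 were above 0.1, and the numbers were taken to pair the mice. The labels do not say what a number stands for. No 2 libraries agreed within sampling noise.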

Additional observations from a re-analysis of the deposited data

Results flagged for a closer look

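In a group of 4 libraries, a library was singled out when its gap to the nearest other library exceeded Dixon's 95% critical share of the whole range; chance gives about 1 such group in 20, and 5 of the 74 groups examined were singled out. Atp5g2 in WT had a gap of 0.8405 of its range, since replicate 3 had 214 normalised counts and the others 88.6 to 108. Atp5g3 in WT had a gap of 0.8329, with replicate 1 lowest at 842. Ndufa1 in WT had a gap of 0.9328, with replicate 2 highest at 421. Sdha in WT had a gap of 0.8751, with replicate 3 highest at 1802 in a range that starts at 1762. Cd1d1 in CD1d-KO had a gap of 0.9811, since replicate 1 had 60.6 normalised counts and the other libraries at most 1.14.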

How the results depend on the processing

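The median log2 fold change of the subunit genes stayed within 1 SD of the pair medians (0.0729) under every alternative tried. It was -0.08 with the length and GC correction, and ran from -0.07 to 0.0015 with single replicates left out, turning just above 0 without WT replicate 2. Here and below, fits without a single library also had no replicate number as covariate. No alternative called a member at an adjusted p under 0.05 or by the study's rule. The count of members lower at an unadjusted p under 0.05, 1 with edgeR and all libraries, was 0 with DESeq2, 2 with upper quartile scaling and 0 to 4 with single replicates left out, the highest without CD1d-KO replicate 2. The count higher was 0 to 1 with single replicates left out, with Atp5g2 passing without replicate 3 or WT replicate 3 and Cox7a2l without replicate 5. Without the replicate block the count lower was 0; the block changed no other call. The Cd1d1 log2 fold change passed an adjusted p of 0.05 with DESeq2 (-6.35), with no filter on counts (-3.42), without replicate 1 and without CD1d-KO replicate 1, and ran from -7.27 to -2.39 with single replicates left out. The causes were not tested. Over 35 named members and 20 alternatives, 673 of 700 values moved by less than 1 SE, and 18 members changed sign at least once. Leaving out the members with copies and following the other lists through the alternatives were chosen after seeing the data. With 4 mice per genotype, the 95% interval of a subunit gene's log2 fold change reached a median of 0.204 to either side of the estimate.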
